A study of Pimephales promelas with 15 samples.

Results

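In a deposited table of estimated transcript counts from fathead minnow larvae, 141 of 14279 protein identifiers (0.987%) stood on 3 or more rows. Members were chosen by the number of rows of the table that carry the identifier, with a summed count above 0, and no difference between groups was used. All 141 identifiers on 3 or more rows passed that count rule. They covered 761 of 15551 rows (4.89%) and held 1.23% of all estimated counts. Of the members, 73 stood on 3 rows, 45 on 4 to 7 rows and 23 on 8 or more rows, and the rows of each of the 141 stood next to each other in the table. Just outside the rule, 652 identifiers stood on 2 rows.

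A transcript of a species without a finished annotation is commonly named after the protein it matches best, often one of a better studied species. Several transcripts can then carry the same name, because they are splice forms of 1 gene, copies of a gene, alleles, or pieces of 1 longer transcript. Short reads that fit several such transcripts equally well are divided among them by the counting software, so the total of a family of similar transcripts is usually better determined than the count of any 1 of them. The files do not say which of these cases holds for a given identifier, and they give no transcript lengths. Shares are therefore shares of counts and not of molecules.

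The identifiers were RefSeq proteins for 77 members and UniProt proteins for the other 64. RefSeq identifiers made up 54.6% of the members, against 41.8% of all other identifiers. None of the 141 matched the reference table of 64593 genes, so members are called by their identifier, and no gene name or function is given for them. Rows are numbered within an identifier in the order of the table, from 1.

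Each library came from a pool of 20 whole larvae of Pimephales promelas taken 7 days after fertilization, and each of 3 groups had 5 libraries with the replicate letters A to E. Larvae of the solvent control came from parents on a diet prepared with ethanol alone, which was evaporated. Larvae of the low group held 0.576 mg/kg of hexabromocyclododecane (HBCD), a brominated flame retardant passed on through the egg by parents fed 11.5 mg/kg food, and larvae of the medium group held 1.77 mg/kg, with parents fed 36.4 mg/kg food. The high dose is not covered here. The labels give no strain or genotype, and the larvae of all groups were reared in clean water. The labels name the material both embryo bodies and larvae, and without gene names it was not checked against tissue markers. In whole larvae, fewer cells of a type and less RNA per cell cannot be told apart.

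Libraries held 12.6 to 58.4 M estimated counts (M, mega-counts), and solvent controls D and E were the deepest, with 49.3 and 58.4 M. Before any comparison of groups, the way in which members divided their counts among rows was compared between libraries. The measure was the share of a member's count that 1 library placed on other rows than another library did, averaged over the 137 members with a total of at least 150 counts. Of the 105 pairs of libraries, 10 lay close together, at 7.02% to 11.2%. The next pair lay at 14.4%. All 10 close pairs were within a group and formed 4 sets: solvent controls C, D and E, low A, C and D, medium A, D and E, and medium B and C. The other 4 libraries, solvent controls A and B and low B and E, were close to none.

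**Figure D1:**
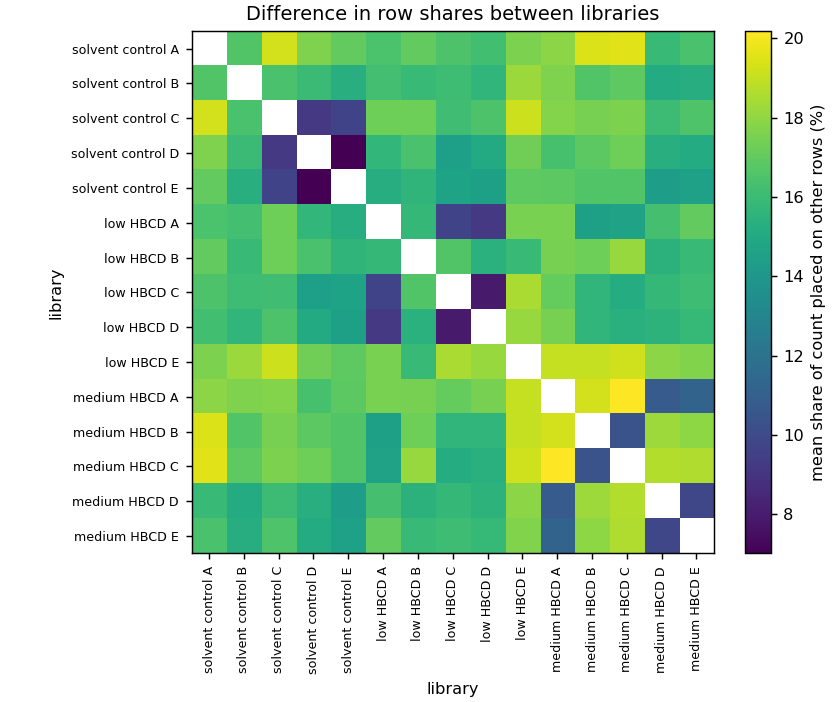
Difference in row shares between each pair of the 15 libraries, in percent of a member's count placed on other rows, averaged over 137 members (dark is close; libraries run from solvent control A to medium HBCD E on both axes). The 10 dark cells on each side of the diagonal, at 7.02% to 11.2%, are the close pairs within the groups, and the remaining pairs lie at 14.4% to 20.2%.

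The other 20 pairs within groups lay at 15.3% to 20.2% (mean 17.4%), and the 75 pairs between groups lay at 14.4% to 19.6% (mean 16.5%). The close pairs were set apart after the distances were seen, and all lay within groups. The remaining pairs therefore cannot show whether libraries of 1 group share their row usage. Over all pairs the mean was 14.8% for the 30 within groups, against 16.5% between groups. For 13 of the 15 libraries the nearest library was of their own group. The same 10 pairs were also the 10 closest in the row shares of 631 identifiers on 2 rows, at 3.35% to 6.13%, against 7.17% and above for all other pairs. In the levels of 12659 identifiers on 1 row, 6 of the 10 pairs were among the 10 closest. Their counts differed by more than sampling noise, with chi-square per degree of freedom between libraries of a group at 12.9 or more. All were kept as separate libraries, although this measure cannot tell whether pools shared parents or material. It followed the close sets only in part. Medium B and C had 12.9, but low A and C had 76.0, against 25.2 for low A and B, which were not close. Chi-square also grows with depth, so these pairs are not compared like with like. Medium B and C held 13.2 and 12.6 M counts, and low A, B and C held 20.0, 13.3 and 26.3 M.

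The labels do not say which pools shared parents, eggs of 1 spawning or a sequencing run, and none of these was tested. Depth moved with the sets in part, and its role was not tested: low A, C and D and medium A, D and E were the 3 deepest libraries of their groups, whereas solvent control C, close to the 2 deepest controls, had 13.03 M and the close pair medium B and C had 13.2 and 12.6 M counts. The p-values below treat the 5 libraries of a group as independent pools and so measure the spread between these pools, which may be technical. As an alternative chosen after the data were seen, the close libraries were summed to 1 replicate per set, which left 3 solvent, 3 low and 2 medium replicates. Its outcome for the calls is given with them.

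Members ranged from 0.088 to 2922 CPM on average (median 27.02 CPM), where CPM is a count scaled to its library's adjusted total. The counts were unevenly spread over members, with 50.1% of them in the 5 most counted. Q6IQX1, on 4 rows, averaged 2922 CPM over the 15 libraries, F1QJD1, on 3 rows, averaged 1299 CPM, and XP_020354035.1, on 3 rows, averaged 983 CPM. Their levels varied widely between pools of a group: Q6IQX1 had 1822, 2219 and 5029.7 CPM as the lowest, median and highest solvent controls, 892, 3428 and 3718 CPM in low larvae, and 2442, 2984 and 4344 CPM in medium larvae. The 3 groups overlapped for this member.

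In most members 1 row held over 50% of the count, and a median of 3 rows was needed to reach 90% of it. Over the 137 members with at least 150 counts, the most counted row held a median of 55.9% of the count (quartiles 43.5% and 71.3%), and the second row held a median of 21.7%. The leading row held over 50% in 84 members, over 75% in 32 and over 90% in 9. Expressed as an effective number of rows, which equals the row count when rows share evenly, the median was 2.11. The 4 members under 150 counts are not included in these shares. Of all member rows, 11 had no count in any library.

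The share of the leading row was lower where an identifier had more rows. Its median was 62.6% in 69 members on 3 rows, 52.1% in 45 on 4 to 7 rows and 36.7% in 23 on 8 or more rows, against 79.4% in 631 identifiers on 2 rows. Part of this order follows from the count of rows itself. At one end, Q6PC60 had 99.5% of its count on 1 of 3 rows and A0A0R4IU93 98.97%, the highest shares among the 50 most counted members. At the other end were the largest families.

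**Figure D2:**
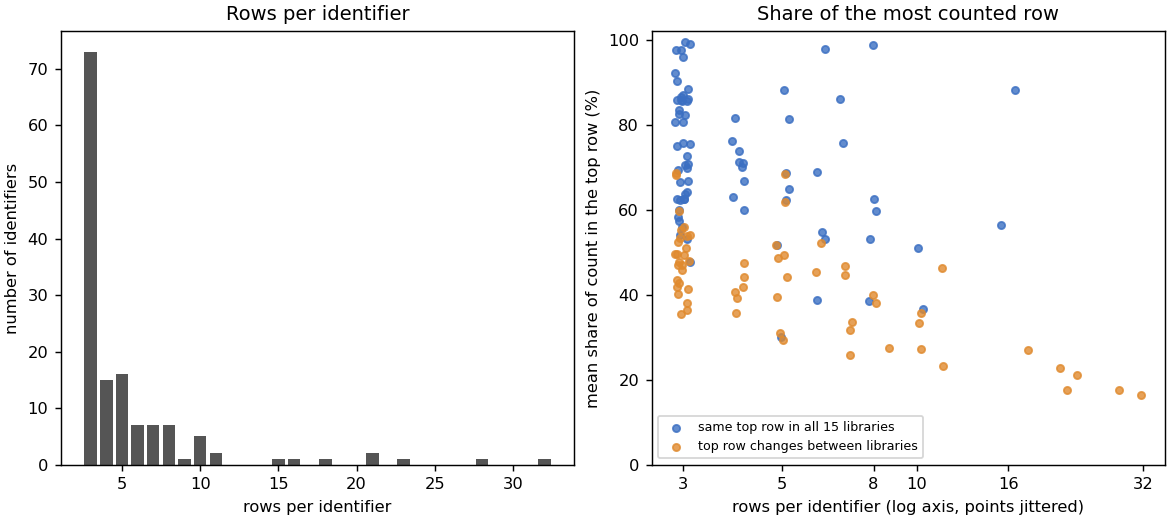
Left, number of identifiers by their number of rows; right, mean share of the count held by the most counted row (%) against the number of rows (log axis), 1 point per member with at least 150 counts (n = 137). Of the 137 points, 75 are members led by the same row in all 15 libraries and 62 are members whose leading row changed, and shares run from 99.5% on 3 rows to 16.3% on 32 rows.

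XP_021330404.1, on 32 rows, was spread most widely: its leading row held 16.3% of the count, and 22 rows were needed to reach 90% of it. XP_023208460.1, on 28 rows, had 17.5% on its leading row and needed 15 rows for 90%. XP_021325113.1, on 23 rows, had 21.1% on its leading row and needed 12 rows. XP_017207901.1, on 18 rows, had 27.0% on its leading row and needed 10.

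The leading row was the same in all 15 libraries for 75 members and changed between libraries for 62. In 36 members 3 or more different rows led in at least 1 library. XP_021325593.1 on 4 rows showed the change plainly. Row 1 led in low A, C and D with 5.85, 7.48 and 6.30 CPM, while row 2 led in low B and E with 7.79 and 5.21 CPM. Row 3 led in medium A, D and E with 3.76, 4.80 and 1.88 CPM, and row 1 in medium B and C with 2.39 and 3.45 CPM. Low and medium libraries were led by the same row within each close set. The close solvent controls were not: row 3 led in solvent controls C and D with 1.52 and 0.771 CPM and was at 0 in solvent control E. The sets were drawn from the row shares of members with at least 150 counts, this member included. Its match with the sets is therefore partly built in and is not a separate observation.

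R4GEX5 on 6 rows, whose row shares also entered the sets, divided the medium group in the same way. Its row 4 had 42.6 and 44.2 CPM in medium B and C, against 11.2, 14.2 and 13.5 CPM in medium A, D and E. Row 5 had 14.1 and 13.3 CPM in medium B and C, against 1.39 to 2.13 CPM in the other medium libraries. Outside that group, low B stood out with 17.8 CPM of row 5. In XP_021326504.1 on 7 rows, row 4 had 23.5, 24.2 and 33.8 CPM in solvent controls C, D and E, against 68.3 and 84.1 CPM in solvent controls A and B. The row shares of this member entered the sets as well, so this division is partly built in. Row 4 did not follow the sets in low larvae, where low B, close to none, lay near low A.

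Member rows, taken as a set, varied more between pools than member totals did. No row was compared with the total of its own member. Rows have lower counts than totals, and members on many rows weigh more in the row median. The median biological coefficient of variation, the spread between pools beyond counting error, was 0.354 for 547 member rows, 0.198 for 136 member totals and 0.169 for totals of identifiers on 1 row. If the counts that 1 row loses go to another, the variance of the total is smaller than the sum of the rows' variances. Within groups that ratio had a median of 1.14, and it was under 1 in 47 of 137 members and over 1 in 90. A ratio over 1 arises where rows rise and fall together more than they trade counts. A member held almost wholly by 1 row lies near 1 whatever its other rows do, as Q6PC60 did at 0.996. The ratio was not tested. The lowest value was 0.21 in XP_021325593.1, followed among the members described here by 0.288 in XP_021325113.1 and 0.588 in E7FEJ8. Of the member row values above 0 that are written finely enough to tell, 17.9% were whole numbers within 0.02, against 43.7% for identifiers on 1 row. Summing the rows of a member left 22.3% whole.

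Low HBCD larvae were compared with solvent controls for each member as a whole. Of 136 members past the low-count filter, 3 (2.21%) had an adjusted p under 0.05, against 0.0527% of all 13283 identifiers tested (edgeR quasi-likelihood test). Of these, 2 were higher in low larvae, and they were the only 2 called higher among all identifiers (0.0151%). The other was lower, as 1 of 5 called lower among all identifiers (0.0376%). At an unadjusted p under 0.05 the shares were 19.9% of members and 7.65% of identifiers. The median absolute log2 fold change was 0.18 over members and 0.12 over all identifiers, and the median signed change was -0.0046 over members and 0.0081 over all. The filter passes an identifier that is high enough in 1 group alone, so these shares describe the members that passed.

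XP_021327233.1, on 3 rows, had 18.9, 12.2, 13.1, 12.4 and 8.10 CPM in low larvae A to E, against 4.56, 2.42, 1.24, 1.31 and 1.21 CPM in solvent controls A to E. Every low library lay above every solvent control (log2 fold change 2.62, SE 0.37, edgeR adjusted p = 0.0311). Row 2 carried most of the difference, with 4.80 to 11.96 CPM in low larvae and 0 to 1.90 CPM in solvent controls. Row 1 had 1.21 to 4.65 CPM in low larvae and 0.745 to 1.59 CPM in solvent controls. All 3 rows were higher in low larvae, and the test of unlike rows did not reach the threshold here (edgeR adjusted p = 0.302). A difference between the rows in low larvae against controls was therefore not shown. Between medium and low larvae the same test called its rows unlike (edgeR adjusted p = 0.0243), with all 3 lower in medium larvae. The call of the sum in low larvae against controls was kept without low B, low E, medium A, solvent control A or solvent control E. It was lost without any other single library (adjusted p 0.0501 to 0.144).

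XP_021325593.1, the member whose leading row changed between pools, had 6.84, 8.53, 11.1, 7.29 and 6.22 CPM as a whole in low larvae A to E, against 1.45, 2.78, 2.61, 1.34 and 0.509 CPM in solvent controls A to E. The groups did not overlap, although different rows supplied the counts in different low libraries (log2 fold change 2.23, SE 0.37, edgeR adjusted p = 0.0464). The largest single change, of row 1, was 3.19 on the log2 scale with an edgeR adjusted p of 0.436. E7FEJ8, on 3 rows, had 72.5, 72.2, 88.9, 81.2 and 84.7 CPM in low larvae, against 99.2, 111, 113, 103 and 104 CPM in solvent controls, again without overlap (log2 fold change -0.41, SE 0.07, edgeR adjusted p = 0.0464). For XP_021325593.1 the call was kept without low E or solvent control E and for E7FEJ8 without low E or solvent control A, and both were lost without any other single library (adjusted p 0.0545 to 0.199). With the close libraries summed, XP_021327233.1, XP_021325593.1 and E7FEJ8 had log2 fold changes of 2.10, 2.15 and -0.41, each with an adjusted p of 0.997.

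**Figure D3:**
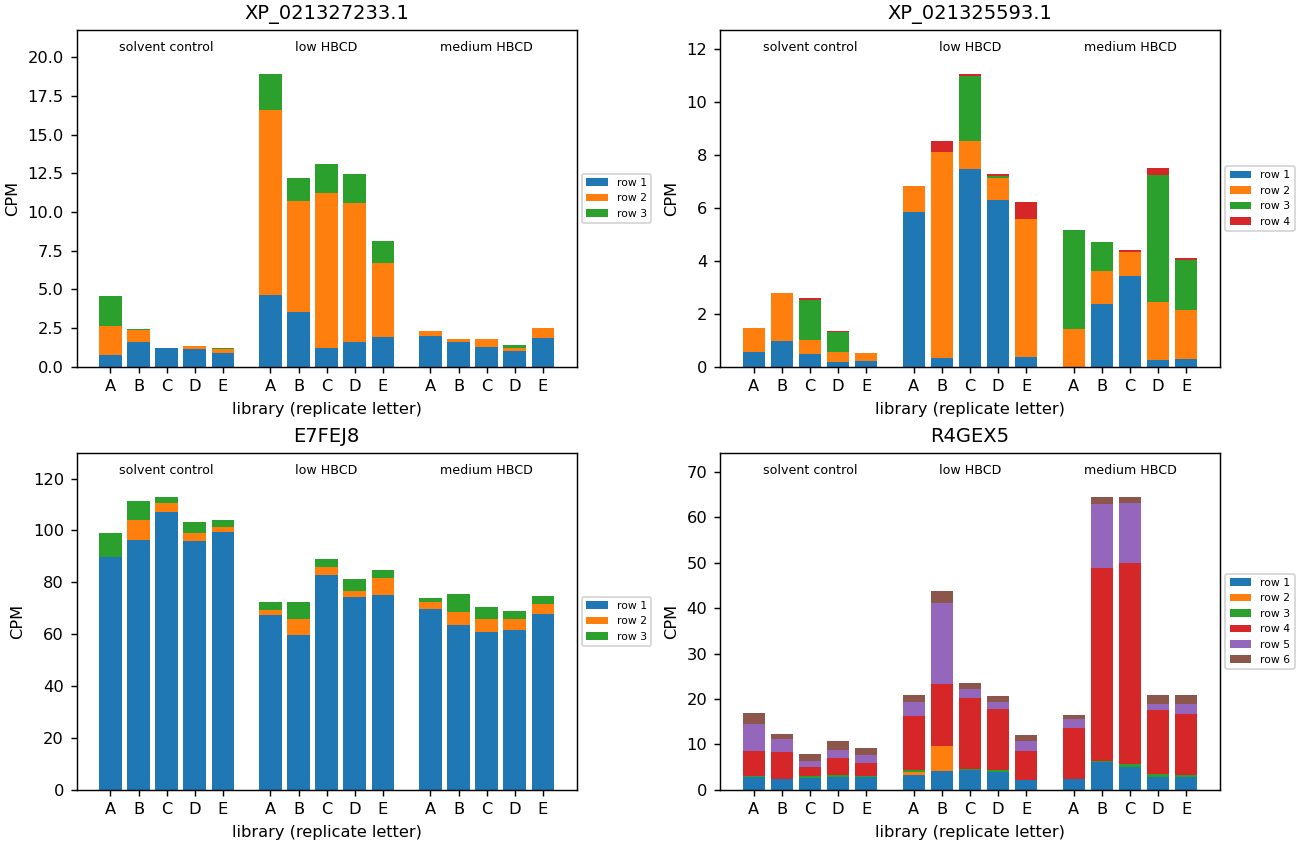
CPM of 4 members in each of the 15 libraries, stacked by row (libraries A to E of the solvent control, low HBCD and medium HBCD groups from left to right; colours are rows in table order). XP_021327233.1 is highest in the 5 low libraries, XP_021325593.1 changes its main row between libraries, E7FEJ8 is mostly row 1 and lower in both HBCD groups, and R4GEX5 is high in medium B and C.

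Medium HBCD larvae were compared with solvent controls in the same fit. Of 136 members, 1 (0.735%) had an adjusted p under 0.05, against 0.0226% of all identifiers. It was lower in medium larvae and was the only 1 called lower among all identifiers (0.00753%). At an unadjusted p under 0.05 the shares were 17.6% of members and 6.29% of all identifiers. The member called was E7FEJ8, at 74.1, 75.3, 70.6, 68.9 and 74.8 CPM in medium larvae A to E, against 99.2 to 113 CPM in solvent controls, with no overlap. Its difference was called (log2 fold change -0.54, SE 0.07, edgeR adjusted p = 0.0118), and the call was lost without solvent control C (adjusted p = 0.0533). With the close libraries summed the log2 fold change was -0.53 with an adjusted p of 0.99955.

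Row 1 of E7FEJ8 held 90.2% of the count and averaged 71.9 ± 8.81 CPM in low larvae and 64.7 ± 3.87 CPM in medium larvae, against 97.7 ± 6.33 CPM in solvent controls (SD, n = 5 each). Rows 2 and 3 together averaged 8.05 ± 3.09 CPM in low larvae and 8.07 ± 2.77 CPM in medium larvae, against 8.44 ± 4.004 CPM in solvent controls, with overlap between all groups. The test of unlike rows did not reach the threshold for this member (edgeR adjusted p = 0.838 for low and 0.646 for medium larvae against controls), so a difference between its rows was not shown.

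XP_017210117.2, described by its rows below, came next among medium larvae as a whole, at 49.6 to 60.1 CPM in medium larvae and 81.9 to 99.1 CPM in solvent controls. Its log2 fold change of -0.76 had an edgeR adjusted p of 0.0624, and leaving out low C or low E, libraries outside the comparison, brought it under 0.05. A fit of only the 10 libraries compared also brought it under 0.05, while with the close libraries summed the log2 fold change was -0.76 (adjusted p 0.99955). R4GEX5 as a whole had 16.5, 64.4, 64.4, 20.9 and 20.8 CPM in medium larvae A to E, against 16.9, 12.3, 7.82, 10.8 and 9.23 CPM in solvent controls (log2 fold change 1.72, SE 0.43, edgeR adjusted p = 0.263). Medium B and C stood well above the other medium libraries, which lay near the highest solvent control, and low B, at 43.7 CPM, stood above the other low libraries, at 12.1 to 23.5 CPM. R4GEX5 had a log2 fold change of 1.71 with the close libraries summed (adjusted p 0.99955). The authors' deposited table lists it in medium larvae at 1.71 (DESeq2 adjusted p = 0.00985).

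XP_021325593.1, called in low larvae, had 5.18, 4.72, 4.41, 7.51 and 4.09 CPM in medium larvae A to E, against 0.509 to 2.78 CPM in solvent controls. These groups did not overlap either, but the difference did not pass the test (log2 fold change 1.61, edgeR adjusted p = 0.194). The authors' deposited table, made with DESeq2, lists this member in medium larvae at 1.63 (adjusted p = 0.00495). DESeq2 run here called 6 member sums in medium larvae against controls, where edgeR called 1.

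Medium HBCD larvae were also compared with low HBCD larvae. Of 136 members, 2 (1.47%) had an adjusted p under 0.05, against 0.151% of all identifiers. Of these, 1 was higher in medium larvae, against 0.0828% of all identifiers, and 1 was lower, against 0.0678%. At an unadjusted p under 0.05 the shares were 16.9% of members and 8.81% of identifiers. XP_021325113.1, on 23 rows, had 146, 158, 165, 156 and 166 CPM in medium larvae A to E, against 103, 113, 118, 98.3 and 122 CPM in low larvae, and the groups did not overlap (log2 fold change 0.51, SE 0.07, edgeR adjusted p = 0.0119). XP_021327233.1 had 2.33, 1.77, 1.78, 1.39 and 2.51 CPM in medium larvae, against 8.10 to 18.9 CPM in low larvae (log2 fold change -2.73, SE 0.37, edgeR adjusted p = 0.0119). Both calls were kept without any 1 library and lost with the close libraries summed, at log2 fold changes of 0.49 and -2.60 and an adjusted p of 1. The rows of both members were also called unlike in this comparison (edgeR adjusted p = 0.0250 for XP_021325113.1 and 0.0243 for XP_021327233.1). With the close libraries summed, 0 members were called for unlike rows between the doses.

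Whether the rows of a member respond alike was tested directly, by an F test of the difference in log2 fold change between rows of the same identifier (edgeR diffSpliceDGE). It could be run on 120 members with at least 2 rows past the filter, and the remaining members have no such test. In low larvae against controls 10 members (8.33%) had rows that responded unlike, against 4.43% of all 632 identifiers tested and 3.52% of the 512 on 2 rows. In medium larvae against controls there were 9 (7.5%), against 3.48% of all and 2.54% of those on 2 rows. Between medium and low larvae there were 13 (10.8%), against 4.91% and 3.52%. In all, 21 members were called in at least 1 comparison, for which no matching share over all identifiers was taken. With the close libraries summed the counts were 2, 1 and 0 (edgeR), with 11, 6 and 6 members at an unadjusted p under 0.05. The test takes rows as independent, although similar rows share reads.

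The share called was highest in members on 8 or more rows in each comparison. In low larvae against controls, 5 of 19 members on 8 or more rows were called, 4 of 41 on 4 to 7 rows and 1 of 60 on 3 rows. In medium larvae against controls the counts were 7 of 19, 0 of 41 and 2 of 60, and between medium and low larvae 7 of 19, 4 of 41 and 2 of 60. Members on 3 rows were thus called at 1.67%, 3.33% and 3.33%, near the 3.52%, 2.54% and 3.52% of identifiers on 2 rows. More rows give the test more differences to find, so the order by rows is not a comparison of like with like. In 10 of 10, 8 of 9 and 12 of 13 called members some rows were higher and some lower, counted whether or not a row passed the test. Mixed directions were common among all 120 members tested, where all rows pointed the same way in 44, 28 and 38. Called members had a median of 6 rows compared in each comparison. The median absolute log2 fold change of their totals was 0.20, 0.28 and 0.16, against 0.18, 0.14 and 0.18 over all members tested. The total was itself called in 2 members, both between medium and low larvae.

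Over all 120 members, called or not, the distance between the highest and the lowest log2 fold change of a member's rows had a median of 0.76, 0.79 and 0.77 in the 3 comparisons. All tested rows pointed the same way in 44 members in low larvae against controls, in 28 in medium larvae against controls and in 38 between medium and low larvae. The counts of unlike members depended on single libraries. The first changed to 17 without solvent control A and to 6 without solvent control C or D. The second changed to 16 without solvent control B and to 3 without solvent control C. The third changed to between 5 and 8 without any 1 of low A, C and D or medium A, B and C.

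**Figure D4:**
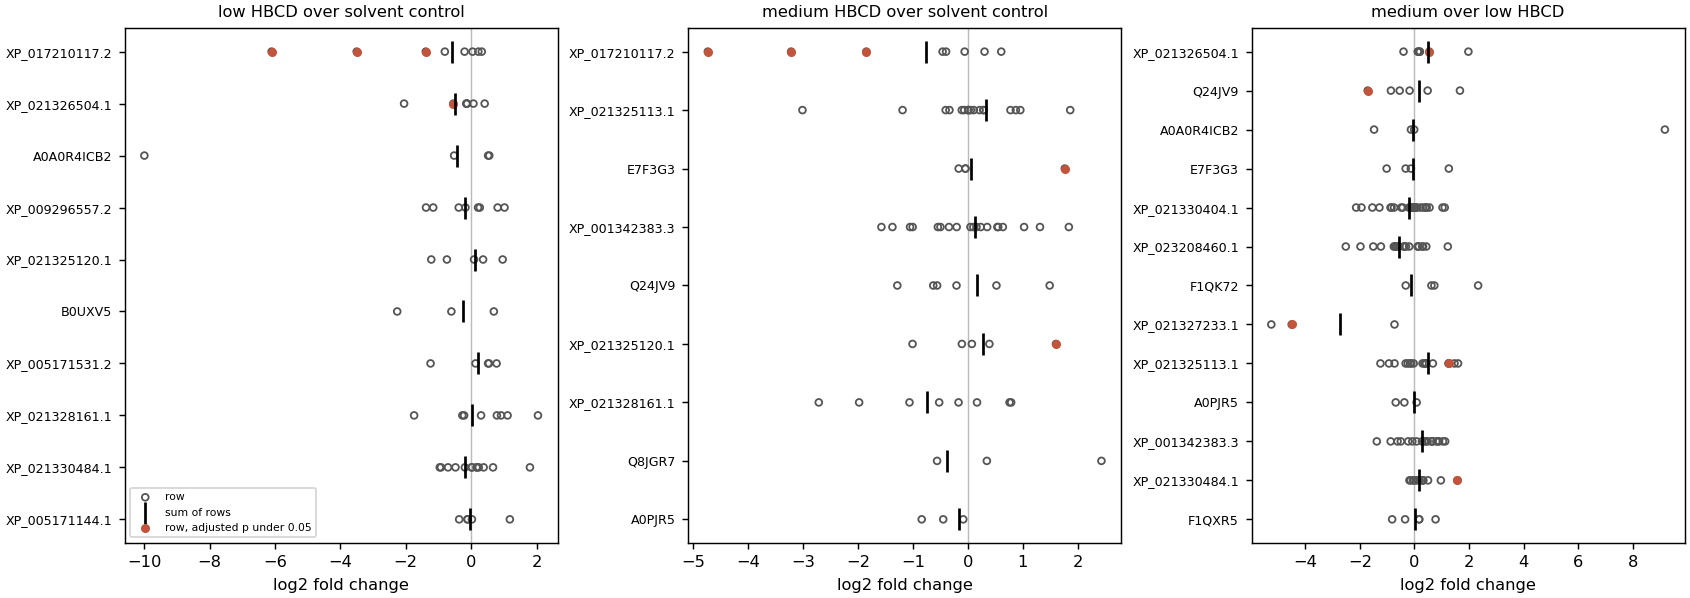
Log2 fold change of each tested row (circles) and of the sum of rows (black bars) for the members whose rows responded unlike, 10, 9 and 13 in the 3 panels from left to right, ordered by p; filled circles are rows with an adjusted p under 0.05. Rows of a member lie on both sides of 0 in 10, 8 and 12 of them while the sums run from -2.73 to 0.51, and the points of A0A0R4ICB2 at the far left of the first panel and the far right of the third are fitted values that involve libraries with almost no count and give no size.

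XP_017210117.2, on 8 rows, had the smallest p against controls in both dose groups, and 3 adjacent rows stood apart. Rows 5, 6 and 7 together had 4.15, 6.25, 3.90, 3.49 and 5.85 CPM in low larvae A to E and 4.37, 3.27, 3.39, 4.27 and 5.26 CPM in medium larvae A to E, against 25.6, 31.5, 23.5, 37.1 and 36.1 CPM in solvent controls A to E. Neither dose group overlapped the controls. These 3 rows, grouped after their values were seen, held 8.49% ± 3.98 of the member's count in low larvae and 7.67% ± 1.33 in medium larvae, against 33.8% ± 4.93 in solvent controls (SD, n = 5 each). The other 5 rows together had 55.6 ± 14.4 CPM in low larvae and 49.5 ± 4.03 CPM in medium larvae, against 59.7 ± 4.01 CPM in solvent controls.

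Row 6 of XP_017210117.2 was nearly lost in both dose groups, with 0, 0.0911, 0.336, 0.115 and 0.279 CPM in low larvae and 0.698, 0.162, 0.168, 0.374 and 0.693 CPM in medium larvae, against 3.54, 10.6, 10.6, 16.6 and 16.1 CPM in solvent controls. The log2 fold change of row 6 was -6.10 in low larvae (SE 0.69, edgeR adjusted p = 0.00409) and -4.73 in medium larvae (SE 0.63, adjusted p = 0.0102). Row 6 lay under 3 counts, or 0.146, 0.228, 0.231 and 0.242 CPM, in low A, low B, medium B and medium C. The sizes of its changes rest in part on values too low to measure and are uncertain. The filter passes a row that is high enough in a single group, here the solvent controls. Row 5 changed by -3.50 in low larvae (SE 0.53, edgeR adjusted p = 0.0371) and -3.22 in medium larvae (SE 0.52, adjusted p = 0.0309), and row 7 by -1.39 (SE 0.22, adjusted p = 0.0371) and -1.85 (SE 0.22, adjusted p = 0.0100). Row 2, the leading row at 27.1 to 51.7 CPM in low larvae and 31.9 to 38.5 CPM in medium larvae, against 41.9 to 48.9 CPM in controls, had log2 fold changes of -0.20 and -0.39 with adjusted p of 0.779 and 0.525. Row 8 had log2 fold changes of 0.22 and -0.06.

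The unlike response of XP_017210117.2 had an edgeR adjusted p of 6.65e-14 in low larvae and 1.25e-10 in medium larvae, and it stayed under 0.05 in all 27 alternatives tried. With the close libraries summed the adjusted p was 9.10e-04 in low larvae and 0.0238 in medium larvae, while the calls of rows 5, 6 and 7 were each lost (adjusted p 0.864 and above). Their log2 fold changes were then -3.49, -5.85 and -1.19 in low larvae and -3.64, -4.71 and -1.76 in medium larvae. The low call of row 6 was kept without any 1 library. In low larvae row 5 lost its call without any 1 of low A, C and D, medium D and E and solvent controls B, C, D and E, and row 7 without these or medium B. In medium larvae row 6 lost it without medium D or solvent control D, row 7 without solvent control D, and row 5 without any 1 medium library, low D or solvent controls A, D or E.

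**Figure D5:**
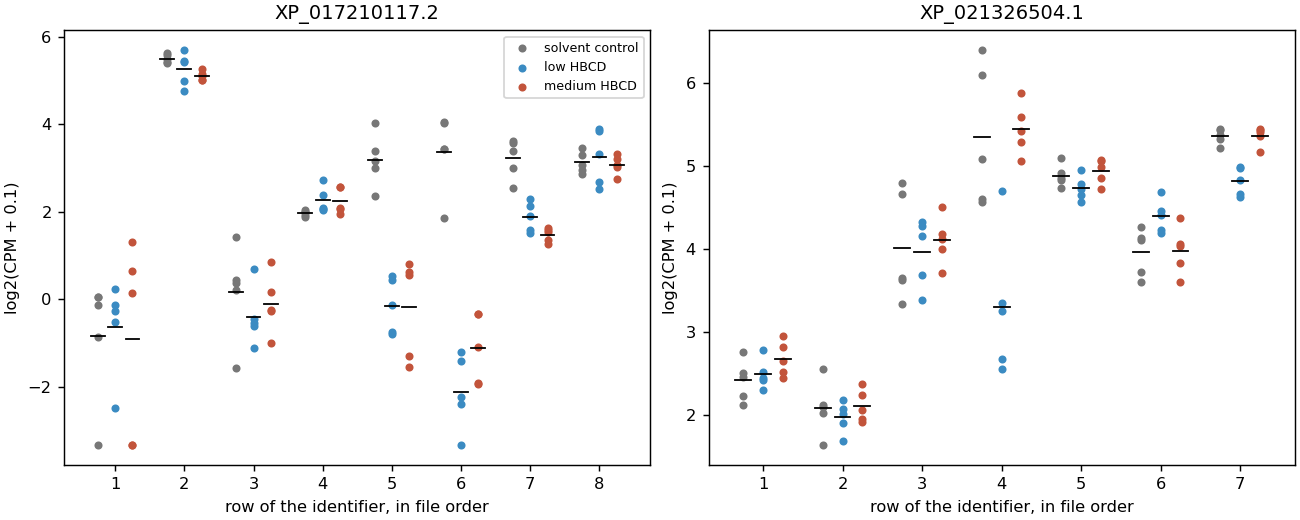
Log2(CPM + 0.1) of each row of XP_017210117.2 (left) and XP_021326504.1 (right) in the 15 libraries, 5 points per group and a bar at their mean, with solvent control, low HBCD and medium HBCD from left to right within a row. Rows 5, 6 and 7 of the first member are lower in both dose groups, and rows 4 and 7 of the second are lower in low larvae, while its rows in medium larvae lie near the controls.

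XP_021326504.1, on 7 rows, had rows that responded unlike in low larvae and not detectably in medium larvae against controls. Row 7 had 28.4, 25.3, 31.2, 24.5 and 31.5 CPM in low larvae A to E, against 41.4, 37.2, 40.0, 43.0 and 43.5 CPM in solvent controls, and 35.7 to 43.5 CPM in medium larvae. Its log2 fold change in low larvae against controls was -0.54 (SE 0.09, edgeR adjusted p = 0.0371). Row 4 had 9.43, 10.1, 5.80, 6.30 and 25.8 CPM in low larvae, against 68.3, 84.1, 23.5, 24.2 and 33.8 CPM in solvent controls, where low E overlapped the controls (log2 fold change -2.05, edgeR adjusted p = 0.125).

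Rows 4 and 7 of XP_021326504.1 together, grouped after their values were seen, averaged 39.7 ± 10.2 CPM in low larvae and 87.8 ± 26.1 CPM in solvent controls (SD, n = 5 each), with 85.4 ± 7.81 CPM in medium larvae. The other 5 rows averaged 73.2 ± 7.41 CPM in low larvae and 72.4 ± 10.8 CPM in solvent controls, with 74.6 ± 6.62 CPM in medium larvae. The test of unlike rows gave an edgeR adjusted p of 4.81e-07 for low larvae against controls and 5.82e-06 for medium against low larvae, where row 7 was higher in medium larvae (log2 fold change 0.55, SE 0.09, adjusted p = 0.0151). With the close libraries summed the low call was kept (adjusted p = 0.0397) and the call between doses was lost (adjusted p = 0.7098). The calls of row 7 were lost as well, at log2 fold changes of -0.53 for low larvae against controls and 0.57 for medium against low larvae. Row 7 lost its low call without any 1 library other than low E, medium A, medium C or solvent control A, and its call between doses without low D, medium D or medium E.

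XP_021325113.1, on 23 rows, was called for unlike rows in medium larvae against controls and between the doses, but by its sum only between the doses. Against controls its sum did not pass the test in medium larvae (log2 fold change 0.33, SE 0.07, edgeR adjusted p = 0.150). The authors' deposited table lists this sum in medium larvae at 0.33 (DESeq2 adjusted p = 2.11e-04). Rows 12, 14 and 23, grouped after their values were seen, together had 77.1, 86.1, 90.1, 84.2 and 73.0 CPM in medium larvae A to E, against 36.8, 58.6, 40.2, 44.1 and 39.1 CPM in solvent controls, and 30.1 to 51.3 CPM in low larvae. The medium libraries lay above all others. The other 20 rows together averaged 76.2 ± 9.65 CPM in medium larvae and 82.6 ± 10.6 CPM in solvent controls (SD, n = 5 each), with overlap. They were not uniform: rows 6 and 10 had log2 fold changes of 0.78 and 0.96 against controls, more than the 0.29 of row 14, and rows 5 and 21 had -1.19 and -3.01, none of which passed the test (edgeR adjusted p 0.216 and above). Row 12 had 11.9 to 14.8 CPM in medium larvae and 4.03 to 6.44 CPM in low larvae (log2 fold change 1.26, SE 0.16, edgeR adjusted p = 0.0110), a call that was kept without any 1 library and lost with the close libraries summed, at a log2 fold change of 1.36. For medium larvae against controls the test of unlike rows gave an edgeR adjusted p of 3.07e-04, which was 0.159 without solvent controls D and E together and 0.980 with the close libraries summed.

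Q24JV9, on 8 rows, and E7F3G3, on 10 rows, had rows that responded unlike. Their totals had log2 fold changes of 0.16 (medium against low) and 0.06 (medium against controls) that did not pass the test. Rows 1 and 2 of Q24JV9, grouped after their values were seen, together had 31.8 to 54.2 CPM in medium larvae, against 15.2 to 29.5 CPM in low larvae, while its other 6 rows had 27.5 to 39.3 CPM in medium larvae, against 33.6 to 49.5 CPM in low larvae. Row 3 had 1.09, 1.146, 1.32, 1.73 and 1.06 CPM in medium larvae, against 4.56, 4.50, 4.76, 3.94 and 3.10 CPM in low larvae, without overlap (log2 fold change -1.71, SE 0.25, edgeR adjusted p = 0.0114, kept without any 1 library). The unlike response between doses had an adjusted p of 5.52e-05 and was lost without medium B (0.0579) or with the close libraries summed (0.999), as was the call of row 3 in the second case, at a log2 fold change of -1.61.

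Row 9 of E7F3G3 had 3.59, 3.08, 1.505, 3.02 and 3.38 CPM in medium larvae, against 0.730, 0.906, 0.564, 0.965 and 1.07 CPM in solvent controls, and every medium library lay above the controls. The log2 fold change of row 9 was 1.77 (SE 0.28, edgeR adjusted p = 0.0309). The other 9 rows averaged 17.2 ± 1.07 CPM in medium larvae and 18.5 ± 1.59 CPM in solvent controls (SD, n = 5 each), with overlap. Of the 10 rows, 4 could be compared, with 1 higher and 3 lower in medium larvae. Their log2 fold changes spanned 1.93, little more than the change of row 9 alone. Without solvent control C the unlike response was lost (adjusted p 0.0831, against 3.41e-04 with all libraries), as it was with the Simes test (0.650). The call of row 9 was kept without low A, B, C or E, medium C or solvent control B and lost without any other single library, and both calls were lost with the close libraries summed, where the log2 fold change of row 9 was 1.67.

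A0A0R4ICB2, on 4 rows, had a row that was almost without counts in 1 group. Its row 1 was at 0 in low A, B, C and D and at 0.00738 CPM in low E, against 0, 4.87, 5.70, 10.6 and 6.44 CPM in solvent controls A to E. In medium larvae it had 2.79, 0, 3.70, 4.15 and 5.15 CPM, so solvent control A and medium B were at 0 as well. The 3-count limit of a low library lay between 0.0817 and 0.231 CPM, and the size of the difference is not given, since every low library was under it. The unlike response had an edgeR adjusted p of 2.79e-04 in low larvae against controls and 7.28e-04 between doses. It was 0.493 and 0.452 in fits of only the 10 libraries compared, 0.127 and 0.359 with limma-voom, and 0.279 and 0.598 with the close libraries summed.

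As single rows, 5 of 547 member rows tested (0.914%) were called in low larvae against controls, 7 (1.28%) in medium larvae against controls and 5 (0.914%) between the doses, against 0.0634%, 0.113% and 0.183% of all 14202 rows tested. At an unadjusted p under 0.05 the shares were 17.4%, 15.5% and 18.3% of member rows, against 8.24%, 6.89% and 9.19% of all rows. The filter passes a row that is high enough in a single group, so these shares describe the rows that passed. The counts of called rows depended on single libraries. In low larvae against controls the count was 11 without solvent control A and 1 or 2 without any other library but low B, low E, medium A or medium C. In medium larvae against controls it was 0 to 4 without medium A, B, C or D, low D or solvent controls A, C, D or E, with the 0 without solvent control D, where 74 member rows had an unadjusted p under 0.05 (edgeR). Between the doses it was 8 without solvent control A and 2 or 3 without low A, C or D or medium A, B, D or E. In low larvae 1 of the 5 was higher, row 10 of XP_023208460.1, at 5.02, 8.19, 6.41, 7.08 and 8.51 CPM in low larvae, against 4.30, 1.90, 1.999, 2.64 and 2.21 CPM in solvent controls (log2 fold change 1.43, SE 0.24, edgeR adjusted p = 0.0417). That call was kept without medium C or solvent control A and lost without any other single library. In medium larvae row 4 of R4GEX5 was higher (log2 fold change 2.65, SE 0.44, edgeR adjusted p = 0.0342), and the call was lost without medium B, C or D, low D or solvent controls A, C, D or E. Row 1 of E7FEJ8 was lower in medium larvae (log2 fold change -0.59, SE 0.08, edgeR adjusted p = 0.0135), a call lost without medium B, medium D or solvent control D.

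Between the doses, row 2 of XP_021327233.1 had 0.354, 0.154, 0.484, 0.193 and 0.666 CPM in medium larvae, against 11.96, 7.17, 10.04, 8.99 and 4.80 CPM in low larvae (log2 fold change -4.50, SE 0.78, edgeR adjusted p = 0.0332), and the call was lost without any 1 medium library or low A, C or D. The filter passes a row that is high enough in a single group, here the low larvae. In medium B row 2 lay under 3 counts (0.231 CPM), so the size of its change is uncertain. A further 2 called rows, outside the rule for named members, were picked after their values were seen. Row 8 of XP_021325120.1 had 2.96 to 5.42 CPM in medium larvae and 0.92 to 2.02 CPM in solvent controls (log2 fold change 1.61, SE 0.26, edgeR adjusted p = 0.0321). Row 14 of XP_021330484.1 had 12.4 to 19.4 CPM in medium larvae and 1.71 to 6.87 CPM in low larvae (log2 fold change 1.58, SE 0.28, edgeR adjusted p = 0.0416). The first was kept without any 1 low library, medium E or solvent control B, the second without low B, low E or solvent controls A or B, and both were lost without any other single library. No member row was called in any of the 3 comparisons with the close libraries summed (edgeR), while 39, 25 and 31 of them had an unadjusted p under 0.05. The log2 fold changes of the called rows in this paragraph and the one before it kept their signs, for example -0.57 for row 1 of E7FEJ8, -4.34 for row 2 of XP_021327233.1 and 2.58 for row 4 of R4GEX5.

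In the authors' deposited table of low larvae against controls, 5 of 99 listed identifiers were members, 3.55% of the members against 0.693% of all identifiers. In the authors' deposited table of medium larvae against controls, 6 of 105 listed identifiers were members, 4.26% of the members against 0.735% of all identifiers. The authors' values come from DESeq2. Run here on member sums, DESeq2 called 5 in low and 6 in medium larvae, as many members as those tables list. EdgeR called 3 and 1, so the number called differed between the tools. The sums called here against controls were all listed. In low larvae these were XP_021327233.1 at 2.63 (DESeq2 adjusted p = 1.88e-08), XP_021325593.1 at 2.25 and E7FEJ8 at -0.41 (both 2.81e-06). In medium larvae E7FEJ8 was listed at -0.54 (2.15e-11). The authors' deposited table listed XP_017210117.2 at a log2 fold change of -0.58 in low larvae (adjusted p = 0.00441) and -0.76 in medium larvae (adjusted p = 1.45e-05), as a single value for all its rows. The authors' deposited table for low larvae also listed A0A0R4IU93 at -0.23 (adjusted p = 0.0111), which had 63.5 to 70.2 CPM in low larvae and 73.4 to 83.5 CPM in solvent controls here (log2 fold change -0.24, edgeR adjusted p = 0.240). The authors' deposited table for medium larvae listed XP_017207901.1 at -0.30 (adjusted p = 0.0119), with 112 to 140 CPM in medium larvae and 153 to 162 CPM in solvent controls here (log2 fold change -0.30, edgeR adjusted p = 0.236). For both members the groups did not overlap. Their log2 fold changes with the close libraries summed were -0.27 for A0A0R4IU93 in low larvae (adjusted p 0.997) and -0.33 for XP_017207901.1 in medium larvae (adjusted p 0.99955).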

How the data were processed

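Per the submitters' processing notes, Trim Galore, kallisto and DESeq2 were used; no source used here states a version or names the transcripts that reads were assigned to. Counts were deposited as 1 table of estimated counts, a row per transcript and a column per library, not normalized. The authors' 2 deposited tables of comparisons give, per the file headers, a mean normalized count (a signal), a log2 fold change and its error, a test statistic (a score) and p-values.

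Members and lists were chosen with earlier results of these data known. Estimated counts were rounded to whole numbers, as rows and as sums per identifier, and tested with edgeR 4.0.16 (R 4.3.3): TMM, filterByExpr, robust quasi-likelihood F test, all 15 libraries in 1 fit, Benjamini-Hochberg adjustment over all identifiers or rows tested, threshold 0.05. Rows responding unlike were tested with diffSpliceDGE over 632 identifiers. The tests were tried on simulated counts in which rows and libraries were drawn independently. That trial does not cover rows that share reads or close sets of libraries. Levels are CPM with TMM factors. Similar transcripts share reads, so counts of single rows are uncertain, and 3-count limits cover counting error only.

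Named members were the 3 with most rows, the 3 of highest CPM, the called sums, the 3 of smallest p for unlike rows in each comparison, the 2 highest and 2 lowest leading shares among the 50 of highest CPM, and those in the authors' tables. Alternatives were other scalings, filters, thresholds and tools (DESeq2 1.42.0, limma 3.58.1), 10-library fits, a replicate block, leaving out each library, and close libraries summed.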

Additional observations from a re-analysis of the deposited data

Results flagged for a closer look

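In 93 sets of 5 libraries (18 named members and 13 called rows, 3 groups each), 4 had a library whose gap to its nearest neighbour exceeded 0.71 of the range; chance gives about 1 in 20. XP_020354035.1 had 1899.8 CPM in low E, against 542 to 883 CPM in the other low libraries. Row 9 of E7F3G3 had 1.505 CPM in medium C, against 3.02 to 3.59 CPM in the other medium libraries. Row 12 of XP_021325113.1 had 4.03 CPM in low E, against 5.81 to 6.44 CPM in the other low libraries. Row 10 of XP_023208460.1 had 5.74 CPM in medium E, against 3.88 to 4.14 CPM in the other medium libraries.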

How the results depend on the processing

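Where 3 counts stand together they belong to low against solvent, medium against solvent and medium against low larvae. Counts called in the alternatives, here and above, cover members and their rows only. The matching shares over all identifiers or rows were not taken, so these counts have no background to be read against. The alternatives followed 39 named values: fold changes of called or authors-listed sums and of called rows, and adjusted p-values of named unlike members. No fold change among them changed sign in any alternative. Other fold changes given above were not followed. The cause of each change was not tested. With the close libraries summed (chosen after the data were seen; 2 or 3 replicates a group) 0, 0 and 0 sums were called by edgeR (12, 9 and 11 at an unadjusted p under 0.05), 0, 0 and 0 rows (39, 25 and 31), and 2, 1 and 0 members with unlike rows (11, 6 and 6); of 32 named calls 3 were kept. With the replicate block the sums were 1 and 0 in the first 2 comparisons (25 and 21 unadjusted) and the rows 0, 0 and 0 (90, 84 and 94 unadjusted). Whether pools with the same letter shared parents, a spawning or a run is not labelled and was not tested. Correlations of deviations in the 15 same-letter pairs ran from -0.13 to 0.15, and 1 was over 0.1. Of the 15 libraries, 4 lay closest to their own letter. DESeq2 called 5, 6 and 6 sums and 23, 23 and 20 rows. limma-voom called 3 sums in medium larvae, 17 rows in low larvae, and 30 and 14 unlike members in low and medium larvae. In fits of 10 libraries 0 sums (26 unadjusted) and 2 rows were called in low larvae, and 2 sums in medium larvae. Without solvent controls D and E together 0 and 0 sums (22 and 20 unadjusted), 1 and 0 rows (60 and 62 unadjusted) and 4, 2 and 7 unlike members were called. A threshold of 0.10 gave 2 sums in medium larvae, 8 rows in low larvae and 15 unlike members in medium larvae. The Simes test gave 3, 4 and 4 unlike members. No filter gave 15 unlike members in medium larvae, non-robust dispersions 1 sum in low larvae, and the stricter filter and upper quartile scaling 2 sums each in medium larvae. A total of at least 1500 counts gave a median leading share of 59.7%. Leaving out 1 library gave 0 to 3, 0 to 2 and 2 to 3 sums, 1 to 11, 0 to 9 and 2 to 8 rows, and 6 to 17, 3 to 16 and 5 to 13 unlike members; the median leading share ran from 55.1% to 56.9%, and 75 to 77 members kept 1 leading row. Depth limits what can be told of rows near 3 counts, a level of 0.0516 CPM in the deepest library and 0.242 CPM in the shallowest.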

Other observations

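XP_020354035.1, at 1899.8 CPM in low E, also changed its division there: rows 1 and 2 had 484 and 832 CPM in low E, against 68.7 to 143 CPM and 95.2 to 224 CPM in the other low libraries, while row 3 had 584 CPM in low E and 361 to 613 CPM in the others. Medium D and E were high in the same rows, with 292 and 336 CPM for row 1 and 501 and 659 CPM for row 2, against 68.9 to 160 CPM and 89.6 to 209 CPM in the other medium libraries. Low E had 892 CPM of Q6IQX1, the lowest of the 15 libraries.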
